A study of Homo sapiens with 40 samples.

Results

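The regions described here were the CENP-A peaks on both sides of the centromere of human chromosome 1, in hg19 coordinates. A peak was a member when it lay wholly between 116.0 and 121.5 Mb, on the short-arm side, or between 128.9 and 148.0 Mb, on the long-arm side. Of 5748 peaks deposited for 6 conditions, 191 were members, 50 of them on the short arm and 141 on the long arm. No measured value other than the position of a peak was used to choose them.

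SW480 cells come from a human colon cancer and are an established line. All cells were electroporated with siRNA and harvested 72 h later, and the groups were a control, single knockdowns of DAXX, HIRA or HJURP, and double knockdowns of HIRA+DAXX or HIRA+HJURP. The study's methods give a control siRNA for the cells that the labels call untreated. The knockdowns were transient and were made in this 1 line. Chromatin was digested with MNase without crosslinking, and ACA, a human anti-centromere serum, was used to pull down CENP-A nucleosomes. There were 4 ChIP libraries each for control, DAXX, HIRA and HJURP and 2 each for HIRA+DAXX and HIRA+HJURP, and each ChIP library had its own input library, which makes 40 libraries. The authors merged the replicates, so that 1 list of starts and ends stood for each condition, with no height, count or p-value. There was therefore no replicate error and no test between conditions, and all values are descriptions of 6 lists. Library depth is not recorded in the lists. The paper reports that depth differed between replicates and that libraries were read in single- or paired-end mode. It also called peaks on random read samples of equal depth, and those calls were not used here.

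CENP-A is the histone H3 variant that marks the active centromere, and HJURP is the chaperone that places it there. HIRA and DAXX are chaperones of another H3 variant, H3.3, and HIRA acts mostly in active chromatin whereas DAXX acts mostly in heterochromatin. Human centromeres are built on alpha satellite, a tandem repeat whose monomers may carry the CENP-B box, the binding site of CENP-B. Next to the centromere, the long arm of chromosome 1 holds a large block of heterochromatin made mostly of other satellites rich in the pentamer GAATG, followed by a region of recent segmental duplications. In hg19 most of the centromere and of this block is a run of unknown bases (N), here from 121485435 to 142535434, a length of 21.1 Mb.

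The sequences under the peaks differed between the arms, and those that the results turn on are given first, all on the plus strand of hg19. The innermost short-arm peaks lay in alpha satellite. The first pair of sequences shows neighbouring monomers of the short-arm site closest to the gap, at chr1:121485047-121485216 and chr1:121485217-121485386, with the CENP-B box in capitals.
Alpha satellite monomer with box: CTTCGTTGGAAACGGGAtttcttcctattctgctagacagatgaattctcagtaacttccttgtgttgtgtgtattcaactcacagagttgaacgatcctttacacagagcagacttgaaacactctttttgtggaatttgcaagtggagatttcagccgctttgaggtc
Alpha satellite monomer without box: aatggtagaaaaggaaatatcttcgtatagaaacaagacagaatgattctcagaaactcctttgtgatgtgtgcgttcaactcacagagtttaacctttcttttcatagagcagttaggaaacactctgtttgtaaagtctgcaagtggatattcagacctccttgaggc
After global alignment 74.0% of positions were identical between these monomers. The next box began 340 bp after the first, and the dimer was 87.4% identical to the one before it.

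On the other side of the gap the first peaks of the long arm lay in satellite DNA of another kind. Further out, most long-arm peaks lay in sequence that is no tandem satellite by these measures. The next pair is the shared core of long-arm sites that had a peak in all 6 lists, at chr1:142815878-142816024 and chr1:143535478-143535688. The last is the shared core, at chr1:145030339-145030523, of a site in an intron of PDE4DIP that had a peak in the DAXX, HJURP and HIRA+HJURP lists. The PDE4DIP site was chosen for display after its values were seen.
Core in the ANKRD20A14P intron: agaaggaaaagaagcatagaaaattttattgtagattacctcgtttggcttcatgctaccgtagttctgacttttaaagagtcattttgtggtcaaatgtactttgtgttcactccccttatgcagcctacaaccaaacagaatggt
Core in segment 5 sequence near a gap: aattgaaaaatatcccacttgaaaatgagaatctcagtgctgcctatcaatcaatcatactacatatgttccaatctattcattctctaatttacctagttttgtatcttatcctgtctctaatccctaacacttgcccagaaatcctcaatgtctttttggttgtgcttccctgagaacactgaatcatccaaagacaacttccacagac
Core in a PDE4DIP intron: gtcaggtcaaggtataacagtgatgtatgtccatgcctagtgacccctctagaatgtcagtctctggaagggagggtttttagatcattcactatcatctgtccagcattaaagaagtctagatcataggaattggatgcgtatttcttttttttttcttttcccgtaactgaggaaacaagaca

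The peaks were not spread over the windows. Gaps of at least 20 kb of N divide the sequenced part into 3 segments on the short arm and 14 on the long arm, and the members lay in 2 and 4 of these. They are numbered here from the short arm outwards through the long arm. Segment 1 (120747157-120936695) holds FAM72B and segment 2 (121086696-121485434) ends at the centromere gap. On the long arm, segment 3 (142535435-142731022) begins at the gap, segment 4 (142781023-142967761) holds the pseudogene ANKRD20A14P, segment 5 (143342817-143544525) follows, and segment 6 (144810725-145833118) holds PDE4DIP and SEC22B. Within 20 kb of a gap lay 16 of 50 short-arm peaks (32.0%), where 1.89% of the sequenced bases of that window lie. On the long arm the numbers were 64 of 141 peaks (45.4%) and 11.8% of the bases. These peaks are counted over all 6 lists, so that the same place can enter several times. The 16 short-arm peaks all lay between 121478197 and 121485461, and most of the 64 long-arm peaks between 143533529 and 143544399.

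**Figure D1:**
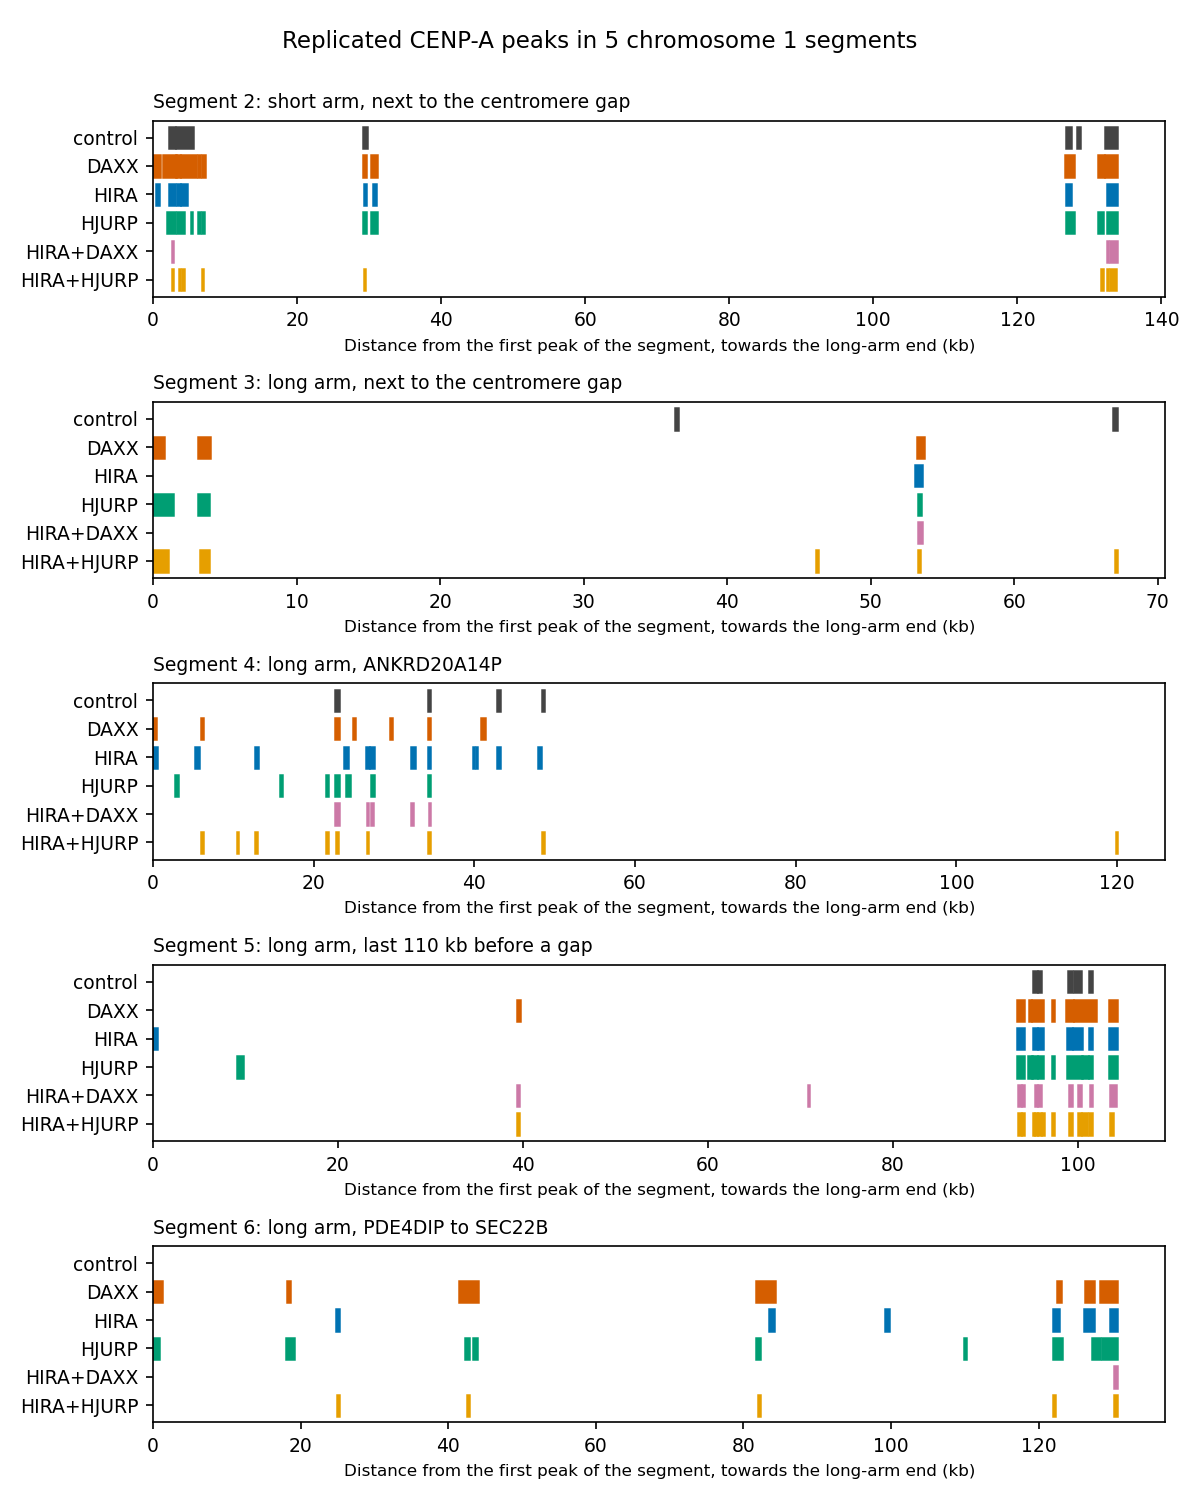
Each bar is 1 replicated peak, drawn with a thin outline that keeps narrow peaks visible, against the distance in kb from the first peak of its segment, with 1 row per condition in segments 2 to 6. Segment 6 is empty in control and holds 1 peak in HIRA+DAXX, whereas the innermost part of segment 2 holds peaks in all 6 lists.

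The long-arm side held more peaks than control in every knockdown list, and the short-arm side in all but HIRA+DAXX. The control list had 7 short-arm peaks, DAXX 12, HIRA 9, HJURP 10, HIRA+DAXX 4 and HIRA+HJURP 8, which is 0.571 to 1.71 times control. The long-arm numbers were 11 in control, 25 in DAXX, 27 in HIRA, 29 in HJURP, 17 in HIRA+DAXX and 32 in HIRA+HJURP, or 2.27, 2.45, 2.64, 1.55 and 2.91 times control. Over all deposited peaks these ratios were 2.33, 2.08, 2.30, 2.50 and 3.88, so that the long-arm ratios were above those of the whole lists in HIRA and HJURP and below them in the other knockdowns, and the short-arm ratios were below them in all 5. The direction on the short arm depended on the measure. HIRA, HJURP and HIRA+HJURP had more short-arm peaks than control but less summed width, and with peaks within 1000 bp merged the short-arm ratio was 1.00 in DAXX and 0.80 in HJURP and in HIRA+HJURP. Among peaks of at least 500 bp the short-arm ratio was 0.667 in HIRA, 1.00 in HJURP and 0.167 in HIRA+HJURP, and the long-arm ratio in HIRA+DAXX was 1.00.

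Summed peak width separated the arms further. Short-arm peaks covered 7.59 kb in control, 11.4 kb in DAXX, 5.64 kb in HIRA, 7.36 kb in HJURP, 1.39 kb in HIRA+DAXX and 2.04 kb in HIRA+HJURP. Long-arm peaks covered 4.21 kb in control, 22.2 kb in DAXX, 14.7 kb in HIRA, 19.3 kb in HJURP, 4.64 kb in HIRA+DAXX and 9.07 kb in HIRA+HJURP. The long arm thus took 35.7% of the member width in control and 66.0% to 81.6% in the knockdowns. By number of peaks its share was 61.1% in control (95% Wilson interval 38.6 to 79.7) and between 67.6% (51.5 to 80.4, DAXX) and 81.0% (60 to 92.3, HIRA+DAXX) in the knockdowns. These intervals cover counting error only, and all of them overlap the interval of control.

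**Figure D2:**
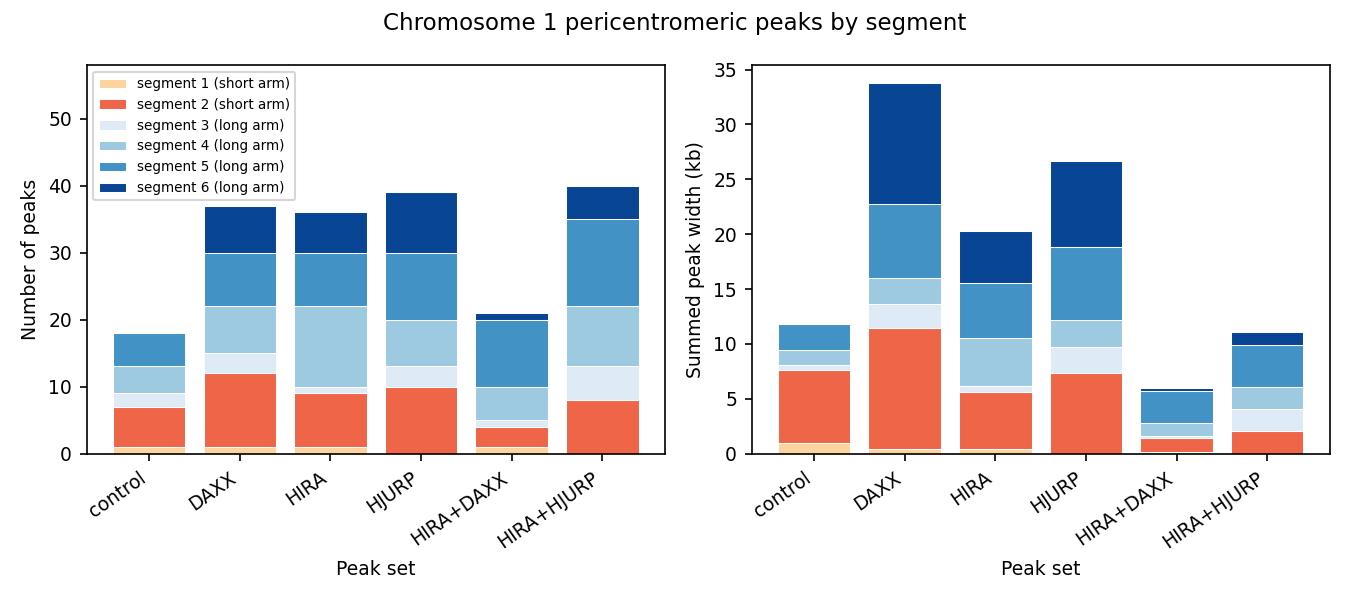
Stacked bars give the number of member peaks (left) and their summed width in kb (right) for each condition, with short-arm segments in orange and red and long-arm segments in blue. Segment 6, the darkest blue, adds nothing in control and 11 kb in DAXX.

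Segment 6 carried much of the gain in width. It held 49.4% of the long-arm width in DAXX, 40.8% in HJURP and 32.4% in HIRA, but 7.76% in HIRA+DAXX and 13.7% in HIRA+HJURP. Without that segment the long-arm width was 11.2 kb in DAXX, 9.92 kb in HIRA, 11.5 kb in HJURP, 4.28 kb in HIRA+DAXX and 7.83 kb in HIRA+HJURP. The ratio to control then went from 5.28 to 2.67 in DAXX, from 3.49 to 2.36 in HIRA, from 4.60 to 2.72 in HJURP, from 1.10 to 1.02 in HIRA+DAXX and from 2.15 to 1.86 in HIRA+HJURP.

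The members were set beside 3400 peaks of the same lists that lay within 5 Mb of a gap of at least 2 Mb on other chromosomes. Over both arms, the chromosome 1 members numbered 2.06 times control in DAXX, 2.00 in HIRA, 2.17 in HJURP, 1.17 in HIRA+DAXX and 2.22 in HIRA+HJURP. The same ratios on the other chromosomes were 1.56, 1.88, 1.53, 2.41 and 3.30. For summed width, chromosome 1 gave 2.85, 1.72, 2.26, 0.510 and 0.941, and the other chromosomes 1.66, 1.33, 1.10, 0.584 and 0.759. Over all deposited peaks the width ratios were 2.51, 1.64, 2.04, 0.700 and 1.37. In the single knockdowns the chromosome 1 ratios were thus above those of the other pericentromeric peaks but close to those of all peaks, slightly lower in number and slightly higher in width.

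Peak widths differed between the 2 sides of the centromere. Median width on the short arm was 842 bp in control, 834 in DAXX, 466 in HIRA, 759 in HJURP, 140.5 in HIRA+DAXX and 176 in HIRA+HJURP. The long-arm medians were 346 bp in control, 578 in DAXX, 468 in HIRA, 546 in HJURP, 236 in HIRA+DAXX and 259 in HIRA+HJURP. The widest long-arm control peak was 763 bp, and peaks of at least 1000 bp there numbered 0 in control, 7 in DAXX, 1 in HIRA, 6 in HJURP, 0 in HIRA+DAXX and 1 in HIRA+HJURP.

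Where control and knockdown peaks touched, all peaks joined through shared bases were taken as 1 group and the summed knockdown width was divided by the summed control width. On the long arm the median ratio was 1.49 in DAXX (4 of 5 groups wider), 1.09 in HIRA (7 of 7), 1.16 in HJURP (6 of 6), 0.691 in HIRA+DAXX (0 of 7) and 0.736 in HIRA+HJURP (2 of 9). On the short arm the medians were 1.05 in DAXX (3 of 6 wider), 0.760 in HIRA (0 of 6), 0.891 in HJURP (2 of 5), 0.148 in HIRA+DAXX (0 of 3) and 0.321 in HIRA+HJURP (0 of 4). Narrow peaks in the double knockdowns were not limited to chromosome 1, because the median over all deposited peaks was 274 bp in both double knockdowns and 712 to 874 bp in the single knockdowns. The double knockdowns also had 2 ChIP libraries in place of 4, so that the knockdown and the number of libraries cannot be told apart.

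**Figure D3:**
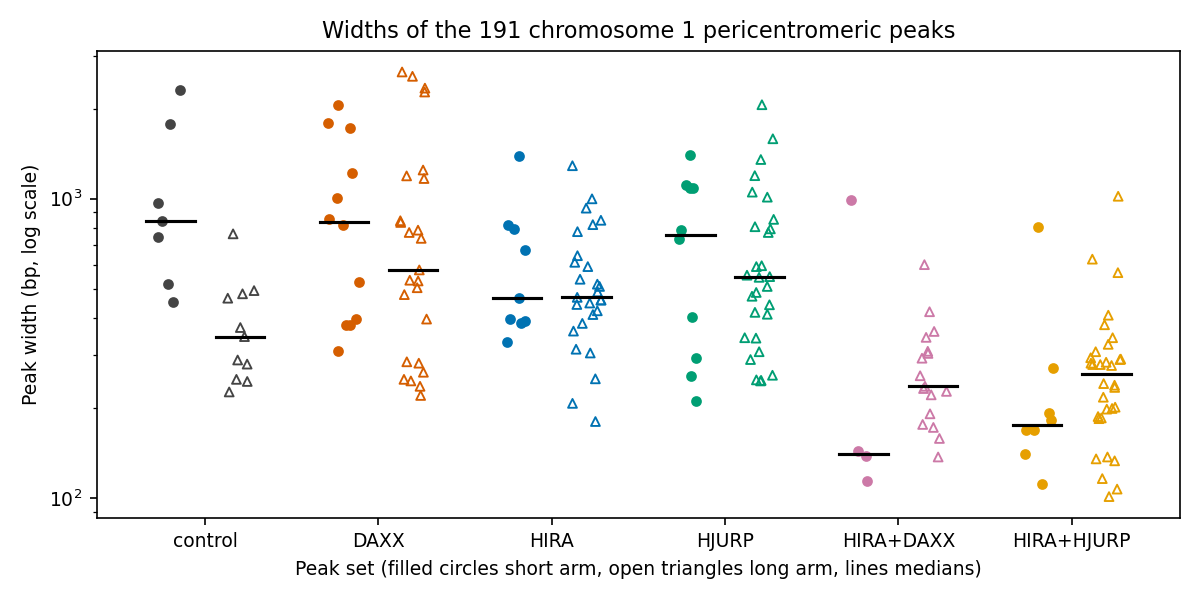
Each point is the width in bp (log axis) of 1 member peak, with filled circles for the short arm, open triangles for the long arm and lines at the medians. Control circles lie above most control triangles, and in the single knockdowns triangles reach widths up to 2652 bp.

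Of the 18 control members, 13 shared at least 1 base with a peak of the DAXX list (72.2%), where 86.0% of all 408 deposited control peaks did. HIRA kept 13 (72.2%, with 84.3% of all control peaks), HJURP 12 (66.7%, with 81.6%), HIRA+DAXX 10 (55.6%, with 74.8%) and HIRA+HJURP 13 (72.2%, with 83.8%). The kept share of the members was below that of all peaks in each of these 5 comparisons, which share the control list. The Wilson intervals of the members, 49.1 to 87.5 for 13 of 18, 43.7 to 83.7 for 12 of 18 and 33.7 to 75.4 for 10 of 18, include the share of all peaks in every case. In the double knockdowns the kept share was lower under stricter counting, at 14.3% in both among peaks of at least 500 bp, and 33.3% in HIRA+DAXX and 44.4% in HIRA+HJURP when 50% of the control peak had to be covered. The share of all deposited control peaks kept under this stricter counting was not computed, so that these values are no result about chromosome 1. On the long arm 7 of 11 control peaks were kept in 4 of the knockdowns and 9 of 11 in HIRA+HJURP. On the short arm 6 of 7 were kept in DAXX and in HIRA, 5 in HJURP, 3 in HIRA+DAXX and 4 in HIRA+HJURP.

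Peaks with no base in any control peak were counted as gained. DAXX gained 25 of 37 members (67.6%, against 68.6% of all its peaks), HIRA 22 of 36 (61.1%, against 56.4%), HJURP 27 of 39 (69.2%, against 66.2%), HIRA+DAXX 10 of 21 (47.6%, against 49.9%) and HIRA+HJURP 24 of 40 (60%, against 64.6%). These shares were within 5 percentage points of the background, so that the total gained is no result about chromosome 1. Pericentromeric peaks of the other chromosomes were gained in 43.2% to 51.4% of cases.

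The gained peaks were unequally placed between the arms. On the long arm 20 of 25 peaks were gained in DAXX (80%, interval 60.9 to 91.1), 20 of 27 in HIRA (74.1%, 55.3 to 86.8), 23 of 29 in HJURP (79.3%, 61.6 to 90.2), 10 of 17 in HIRA+DAXX (58.8%, 36.0 to 78.4) and 22 of 32 in HIRA+HJURP (68.8%, 51.4 to 82.0). On the short arm 5 of 12 were gained in DAXX (41.7%, 19.3 to 68.0), 2 of 9 in HIRA (22.2%, 6.32 to 54.7), 4 of 10 in HJURP (40%, 16.8 to 68.7), 0 of 4 in HIRA+DAXX (Wilson upper bound 49.0%) and 2 of 8 in HIRA+HJURP (25.0%, 7.15 to 59.1). The long-arm share was the higher in all 5 lists, and only in HIRA did the intervals of the arms not overlap. Over all deposited peaks the gained shares were 68.6% in DAXX, 56.4% in HIRA, 66.2% in HJURP, 49.9% in HIRA+DAXX and 64.6% in HIRA+HJURP. These lay inside the long-arm interval in every list, so that the long-arm shares are not set apart from the whole lists. They lay above the short-arm interval in every list but HJURP. Of the 20 long-arm peaks gained in HIRA, 6 lay in segment 6, where no control peak lies and every peak counts as gained. The intervals of the arms without that segment were not computed.

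Peaks of all lists that touched or lay within 1000 bp of each other were joined into 42 sites, 5 on the short arm and 37 on the long arm. All 5 short-arm sites had a control peak. This holds for the 1000-bp join, and when only touching peaks were joined 5 of 12 short-arm intervals had no control base, all of them within sites 2, 3 and 5. On the long arm 8 sites had a control peak and 29 did not. A peak was present in all 6 lists at 6 sites, 2 on the short arm and 4 on the long arm. Long-arm sites absent from control numbered 15 in DAXX, 14 in HIRA, 15 in HJURP, 7 in HIRA+DAXX and 16 in HIRA+HJURP, and 12 of the 37 long-arm sites were found in a single list. The 29 sites without control come from 5 knockdown lists set together against 1 control list. Sites over all deposited peaks were not counted in this way, so that these numbers are no result about chromosome 1.

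**Figure D4:**
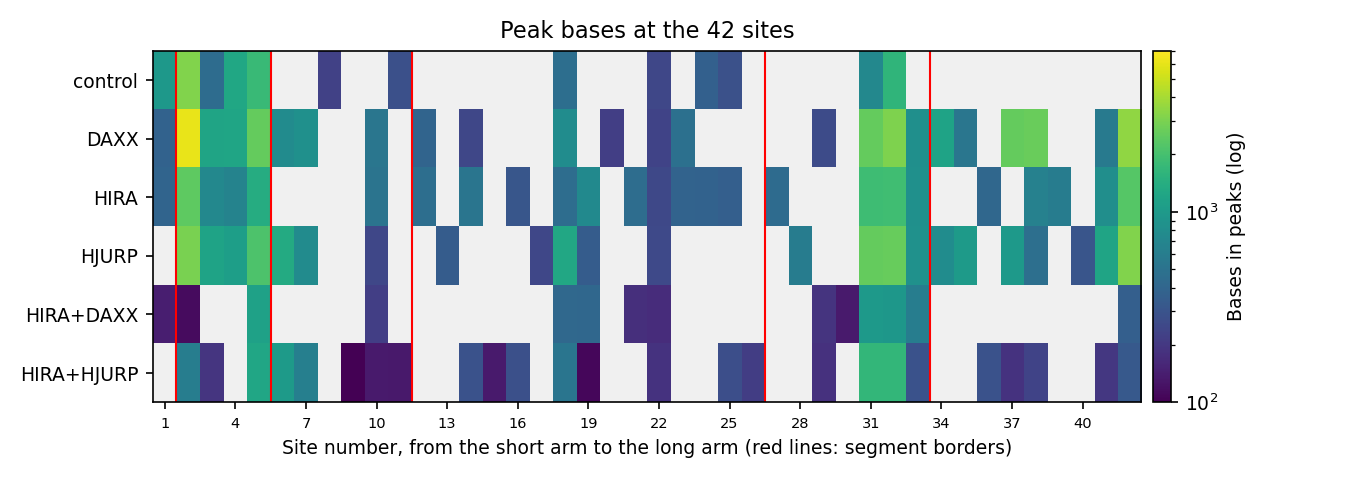
Columns are the 42 sites in chromosome order, rows the conditions, and the colour gives the bases in peaks on a log scale, with grey for no peak and red lines between segments. Sites 1 to 5, on the short arm, all have control peaks, and the 9 sites of segment 6 at the right have none.

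The outermost short-arm site was FAM72B, a member of a human gene family that was duplicated together with SRGAP2. FAM72B lies on the plus strand at 120837756-120855681. Its peak covered 965 bp in control, 379 in DAXX, 396 in HIRA and 143 in HIRA+DAXX, and neither HJURP nor HIRA+HJURP had a peak there. The site was thus present in the 4 lists in which HJURP had not been targeted and absent from the 2 in which it had. This is 1 site of 42, in lists that keep no replicate apart, and a link to HJURP was not tested. The peaks began 157 bp (control), 699 bp (DAXX), 690 bp (HIRA) and 751 bp (HIRA+DAXX) after the annotated gene start. Each overlapped an annotated exon of FAM72B and no annotated UTR, and whether the exons are coding was not examined. The control peak also touched the antisense transcript RP11-439A17.7. The 1000 bp around the site had 61.6% GC, against 38.4% to 44% in segment 2. The core shared by the 4 lists, at chr1:120838507-120838649, is shown for its CG dinucleotides, in capitals.
FAM72B core: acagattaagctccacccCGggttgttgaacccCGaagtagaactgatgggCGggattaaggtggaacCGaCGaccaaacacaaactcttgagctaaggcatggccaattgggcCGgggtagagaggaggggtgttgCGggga
It held 7 CG dinucleotides in 143 bp.

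The remaining short-arm sites were in segment 2, and no annotated gene overlapped them. The nearest was the long non-coding RNA gene LINC01691, 29267 bp or more away. Site 5 (121482725-121485461), at the gap itself, carried 1773 bp of peak in control, 2580 in DAXX, 1392 in HIRA, 2136 in HJURP, 1128 in HIRA+DAXX and 1244 in HIRA+HJURP. It was the only short-arm site at which every list kept more than 1000 bp. Its longest core common to the 6 lists was 800 bp (121484416-121485215). The control peak ran 27 bp into the N of the gap, so that its end is not given by sequence.

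Site 2 (121351590-121358794) was the widest site of either arm and the one whose covered bases differed most between lists. Its peaks covered 3147 bp in control, 6080 in DAXX, 2459 in HIRA, 2954 in HJURP, 114 in HIRA+DAXX and 602 in HIRA+HJURP. The common core was therefore 114 bp (121354267-121354380). Site 3 (121380790-121382682) went from 450 bp in control to 1194 in DAXX, 721 in HIRA and 1184 in HJURP, with 0 in HIRA+DAXX and 192 in HIRA+HJURP. Site 4 (121478197-121480346) had 1260 bp in control, 1217 in DAXX, 674 in HIRA and 1086 in HJURP, and neither double knockdown list had a peak there. The single and double knockdowns thus did not overlap in width at any of sites 2 to 5.

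Alpha satellite was recognised by the share of bases equal to the base 1 monomer further on. Among lags from 100 to 250 bp, the short-arm intervals matched best at 171 bp, at 42.7% of bases, with 32.0% at the next best lag of 169 bp. A match of at least 40%, a threshold chosen after the values were seen, was found around 7 of 12 short-arm intervals (58.3%) and 0 of 47 long-arm intervals, where an interval is a run of peak bases joined over the 6 lists. The same was found in 1.95% of 1000-bp tiles of the short-arm window, in none of the long-arm tiles, and around 17.7% of the peak intervals elsewhere. Most intervals next to the gap on the short arm thus lay in centromere-type repeat. The study names a peak ectopic when it lies outside its centromere boundaries, a name not used here for peaks in alpha satellite.

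CENP-B boxes were searched on both strands with the 17-base consensus and no mismatch. Segment 2 intervals held 7 boxes and long-arm intervals none. Of the 7, 5 were on the minus strand, in sites 2 and 4, and 2 on the plus strand, in site 5. The box printed above lay inside a peak of all 6 lists, and that at 121485387-121485403 inside a peak of all but HIRA+HJURP. Around short-arm intervals 4 of 12 windows of 1000 bp held a box (33.3%), against 1.42% of the tiles of that window and 7.49% of the peak intervals elsewhere. A match is a run of letters and does not show that CENP-B was bound.

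**Figure D5:**
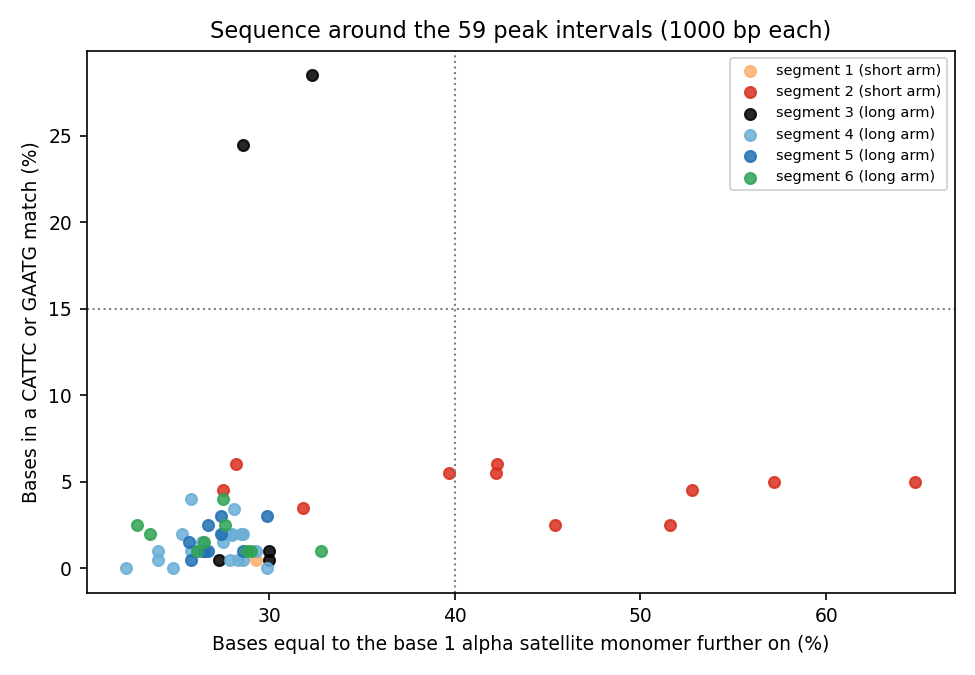
Each point is the 1000 bp around 1 of 59 peak intervals, placed by the percent of bases equal to the base 171 bp further on (x) and the percent of bases in a CATTC or GAATG match (y). Dotted lines mark 40% and 15%, with 7 segment 2 intervals to the right of the first and 2 segment 3 intervals above the second.

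Segment 3 opens the long arm and began with the GAATG satellite. Around sites 6 and 7, 24.5% and 28.5% of bases lay in a match to GAATG or its complement CATTC, and these were 2 of 47 long-arm intervals at or above 15%. That level was reached by 0.154% of the tiles of the long-arm window and around 15.2% of the peak intervals elsewhere. Site 6 (142535455-142536825) had 771 bp of peak in DAXX, 1352 in HJURP and 1019 in HIRA+HJURP. Site 7 (142538559-142539402) had 844 bp, 771 bp and 628 bp in the same lists. Neither had a peak in control, HIRA or HIRA+DAXX, and the peak at site 6 was the only HIRA+HJURP member of at least 1000 bp.

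Further into segment 3 the peaks were short. Site 10 (142588545-142589187) was in all 5 knockdown lists and not in control, with 531 bp of peak in DAXX, 509 in HIRA, 248 in HJURP, 221 in HIRA+DAXX and 135 in HIRA+HJURP, and it began 311 bp from the long non-coding RNA gene RP11-417J8.2. Site 8 (142571790-142572015), of 226 bp in an intron of that gene, was the only site found in control alone.

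Segment 4 held 15 of the 42 sites, many of them in ANKRD20A14P, a pseudogene of the ankyrin repeat ANKRD20A family at 142803532-142827235 on the plus strand. It overlapped 3 control peaks, 5 in DAXX, 8 in HIRA, 4 in HJURP, 5 in HIRA+DAXX and 3 in HIRA+HJURP. The whole segment held 4 peaks in control, 7 in DAXX, 12 in HIRA, 7 in HJURP, 5 in HIRA+DAXX and 9 in HIRA+HJURP, and HIRA had the highest number. Their median width was between 176 bp and 372 bp in all lists, and no peak reached 1000 bp.

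Site 22 (142815789-142816094) lay in an intron of the pseudogene and touched an exon of RP11-423O2.5, a long non-coding RNA gene on the other strand. It had 1 peak of similar width in every list, which measured 249 bp in control, 236 in DAXX, 250 in HIRA, 257 in HJURP, 172 in HIRA+DAXX and 187 in HIRA+HJURP. Site 18 (142803096-142806755), at the start of the pseudogene, had 465 bp in control, 789 in DAXX, 458 in HIRA, 1285 in HJURP, 419 in HIRA+DAXX and 520 in HIRA+HJURP. Site 19 (142808147-142809038) lay in an intron and had no control peak, with 753 bp of peak in HIRA, 342 in HJURP, 414 in HIRA+DAXX and 107 in HIRA+HJURP.

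Segment 5 was covered mainly in its last stretch before the gap at 143544526. Site 31 (143533529-143537595) had 726 bp of peak in control, 2560 in DAXX, 1877 in HIRA, 2571 in HJURP, 1004 in HIRA+DAXX and 1659 in HIRA+HJURP, so that every knockdown lay above control. Site 32 (143538903-143542096) had 1602 bp in control, 3079 in DAXX, 1890 in HIRA, 2594 in HJURP, 941 in HIRA+DAXX and 1661 in HIRA+HJURP, with HIRA+DAXX alone below control. Site 33 (143543535-143544399), last before the gap, was in all 5 knockdowns and not in control, with 833 bp, 847 bp and 853 bp in DAXX, HIRA and HJURP, 602 in HIRA+DAXX and 291 in HIRA+HJURP. None of the 3 sites overlapped an annotated gene, and the nearest, RP11-435B5.7, was 256 bp from site 31.

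Segment 6 was the only one of the 6 with no control peak. It held 7 peaks in DAXX, 6 in HIRA, 9 in HJURP, 1 in HIRA+DAXX and 5 in HIRA+HJURP, which covered 11 kb, 4.75 kb, 7.88 kb, 0.360 kb and 1.24 kb, and every one of them was gained. The peaks lay in and between a pair of protein-coding genes. PDE4DIP (144836157-145076227, minus strand) encodes myomegalin, a protein of the Golgi and centrosome, and SEC22B (145096408-145118353, plus strand) encodes a SNARE protein of transport between the endoplasmic reticulum and the Golgi.

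PDE4DIP was touched by 4 peaks in DAXX, 2 in HIRA, 5 in HJURP and 3 in HIRA+HJURP, all in introns, and by none in control or HIRA+DAXX. Site 38 (145069399-145072050) had 2652 bp in DAXX, the widest member of all, with 645 in HIRA, 472 in HJURP and 234 in HIRA+HJURP. The intronic site printed above (145029214-145031778) had 2565 bp in DAXX, 991 in HJURP and 185 in HIRA+HJURP.

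SEC22B was touched by 3 peaks in DAXX, 3 in HIRA, 4 in HJURP, 1 in HIRA+DAXX and 2 in HIRA+HJURP. The outermost long-arm site, site 42 (145113957-145118408), covered exons and the 3′ UTR of SEC22B and had 3465 bp of peak in DAXX, 2288 in HIRA, 3113 in HJURP, 360 in HIRA+DAXX and 326 in HIRA+HJURP. It was the only site of segment 6 present in all 5 knockdown lists and the only one in HIRA+DAXX. On the same bases the GENCODE annotation lifted to GRCh37 also places the pseudogene entries SEC22B2P, SEC22B3P, SEC22B4P and PDE4DIPP2, and the RefSeq table of GRCh38.p14 lists 4 entries named for SEC22B and 11 for PDE4DIP. Whether reads of other copies were placed in this segment was not tested.

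Beyond these genes the windows were mostly free of peaks. On the short arm 2 of 131 annotated genes had a peak, and on the long arm 13 of 212. Of protein-coding genes the numbers were 1 of 32, FAM72B, and 2 of 49, PDE4DIP and SEC22B. Among the families that make up the duplications of this region, 9 NBPF genes, 2 SRGAP2 genes, 3 PPIAL4 genes, 6 NOTCH2 and NOTCH2NL genes, 1 FCGR1 gene and 1 HIST2 gene had no peak in any list, and 1 of 2 FAM72 genes had. None of 22 short-arm genes on a second list, which include the serine synthesis gene PHGDH and the T cell adhesion gene CD2, had one. That list was drawn up with NOTCH2 in it as well, and the copy number of its genes was not measured.

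The segments also differed in how often their sequence recurs in hg19, counted as other matches of at least 90% identity over at least 80% of an interval. Segment 2 intervals had a median of 64 other copies, all on chromosome 1, but 3 of 11 had none, among them the one at the gap. These 3 were the widest of the segment, at 2725, 1796 and 1773 bp, and 1 match had to span 80% of each. Having none thus does not show that their sequence is unique. Copies were summed over intervals, so that the same place can count for several intervals. Of 511 copies summed in this way for segment 2, 37 overlapped a peak of some list. Medians were 6 in segment 3, 12 in segment 4 and 6 in segment 5. Copies on chromosome 21 were found for 4 of 6 segment 3 intervals, 20 of 23 in segment 4 and 7 of 9 in segment 5. Peaks overlapped 2 of 25 copies for segment 3, 0 of 208 for segment 4 and 1 of 44 for segment 5, where intervals with over 100 copies, 2 in each of segments 4 and 5, were left out. The closest copies of segment 4 intervals were 94.8% to 99.0% identical. None of the 9 intervals of segment 6 had another copy. The segment 1 interval, at FAM72B, had 2 other copies, both on chromosome 1, the closer of them 97.8% identical. The authors kept alignments with a mapping quality of at least 10, which removes reads that fit several places equally well. What this did to peaks in segments 1 to 5 was not tested.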

How the data were processed

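The study sequenced 20 ChIP and 20 input libraries of SW480 cells, which were grouped by their labels. Per the paper's methods and the labels, the authors used Trimmomatic to trim reads and Bowtie2 2.2.6 for alignment to hg19, required a mapping quality of at least 10, called peaks with MACS against each input and merged replicates. A merged peak counted as replicated when at least 3 replicates had a peak there, and the rule for the double knockdowns, with 2 libraries, is not given in the sources used here. The deposited lists hold peak starts and ends as coordinates (unit: other), with no count, signal or p-value.

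Overlap needed 1 shared base. Kept, gained, sites, widths and gene overlaps were computed in Python 3.11.15 with numpy 2.4.6, Wilson 95% intervals with scipy 1.17.1, figures with matplotlib 3.10.9 and copies with blastn 2.17.0 on the GRCh37 reference, whose chromosomes are those of hg19. Genes are GENCODE release 44 lifted to GRCh37. The code was tested on simulated intervals. Named sites were those in all 6 lists, those in control alone, the 2 widest per knockdown and arm without control bases, those in all 5 knockdowns without control, and the outermost on each arm. Sites 3 and 4 were added to complete the short arm, and the PDE4DIP site printed first was chosen after its values were seen. Members and lists were chosen with earlier results of these data known. The sequence of the long-arm satellite edge is not reported here.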

Additional observations from a re-analysis of the deposited data

How the results depend on the processing

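Of 161 values from 33 results under other settings, 122 stayed the same, 32 moved and 7 reversed. The ratios and numbers of sites among the 122 stayed within 1.5 times the value given without turning direction. The shares among them stayed inside the Wilson interval of the value given, and a share outside it counted as moved. The 122 include the short-arm HJURP ratio among peaks of at least 500 bp, 1.00 against 1.43, which has no direction. Counting only peaks of at least 500 bp, the short-arm ratio to control was 0.667 in HIRA and 0.167 in HIRA+HJURP, both reversed, and 0.167 in HIRA+DAXX, and the long-arm ratio was 16.0 in DAXX, 12.0 in HIRA, 16.0 in HJURP and 1.00 in HIRA+DAXX. With that minimum the long-arm share was 14.3% in control and 50% in HIRA+DAXX, the kept share 14.3% in HIRA+DAXX and in HIRA+HJURP, and the gained share in HIRA+HJURP 75.0%. Peaks merged within 1000 bp gave short-arm ratios of 1.00 in DAXX and, reversed, 0.80 in HJURP and in HIRA+HJURP. Summed width gave short-arm ratios of 0.743 in HIRA, 0.969 in HJURP and 0.268 in HIRA+HJURP, all reversed, and 0.182 in HIRA+DAXX, long-arm ratios of 5.28 in DAXX and 4.60 in HJURP, and a long-arm share of 35.7% in control. With 50% of a peak as the overlap, 33.3% of control peaks were kept in HIRA+DAXX and 44.4% in HIRA+HJURP. Kept and gained shares over all deposited peaks were not computed under these settings. The number of sites was 20 when merged within 10000 bp and 21 with peaks of at least 500 bp. Those in control were then 8 and 5, those not in control 12 and 16, those in a single list 4 and 4, and those in all 5 knockdowns and not control 1 and 0. Sites in all 6 lists fell to 1 at 500 bp, and sites in control alone to 0 at 10000 bp. Merging only peaks that touch gave 44 sites not in control, 5 of them on the short arm, 19 in a single list and 2 in control alone. The causes were not tested. Peaks with any base in a window, extension by 500 bp and, added after the data were seen, omission of segment 6 moved no count or share by over 1.5 times, whereas the long-arm width ratios without that segment were 2.67 in DAXX, against 5.28, and 2.72 in HJURP, against 4.60.

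The lists keep no replicate apart and give no depth, and no replicate was left out; the precision of a width is unknown. No paired analysis was possible because each condition is 1 merged list with no replicate columns.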
